A study of Mus musculus with 18 samples.

Results

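Metalloproteinases cut extracellular matrix and cell-surface proteins, and 5 of their genes were followed here across sorted group 1 innate lymphocytes. The members were Mmp9, Adam8, Adam10, Adam17 and Adam19, 5 of 46078 genes in the count table. They were chosen by measured levels: Mmp9 and Adam19 were far higher in control type 1 innate lymphoid cells (ILC1s) of the liver than in control natural killer (NK) cells of the liver. Values of the members in those 6 libraries are therefore a description, without a test. All 5 members passed the filter on low counts, but Mmp9 and Adam19 passed through the ILC1 libraries, being at or near 0 in NK cells.

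Each of 18 bulk libraries was made by SMART-seq, a method for full-length cDNA from few cells, out of 200 cells sorted from C57BL/6 mice aged 8 weeks. The 6 groups of 3 libraries were RARa403 and control liver ILC1s, RARa403 and control liver NK cells, and RARa403 and control spleen ILC1s. Every mouse carried Ncr1-Cre, which drives Cre recombinase in cells that express NKp46, the marker of ILC1s and NK cells, so the controls carry Cre too. RARa403 mice also carried Rosa26-RARalpha403, a dominant-negative retinoic acid receptor α inserted at the Rosa26 locus. All cells were sorted as CD3- NK1.1+ NKp46+. Among these, ILC1s had CD49a, the IL-7 receptor and little CD49b, and NK cells had CD49b without CD49a. The series title asks about a role of retinoic acid receptors in ILC1 maintenance. Nothing in the labels ties libraries to animals, so p-values measure only the spread between these libraries, and in bulk samples fewer expressing cells cannot be told apart from less RNA per cell.

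ADAM proteases are anchored in the cell membrane, where they release the outer parts of other membrane proteins, a process called shedding. ADAM10 and ADAM17 are the broadly expressed sheddases. ADAM10 is known for cutting Notch receptors, and ADAM17 for releasing tumour necrosis factor. MMP9, or gelatinase B, is secreted instead and digests denatured collagens and basement membrane collagen. In blood and tissue it is best known as a product of neutrophils and macrophages. ADAM8 is a sheddase of leukocytes, and ADAM19, also called meltrin β, is known in mice for its part in heart development.

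Library totals ranged from 3452279 to 9038767 counts. A count of 3, used as the detection floor, corresponded to between 0.334 and 0.86 CPM, the unit of counts scaled to a common library size that is used throughout. Among the sorting markers, Itga1 (CD49a) had 401 to 1778 counts in the ILC1 libraries and Itga2 (CD49b) 411 to 1184 in the NK libraries. Itga2 also had 20 to 423 counts in the ILC1 libraries. Il7r, a gene of the IL-7 receptor, had 960 to 7203 counts in the ILC1 libraries and 84 to 864 in the NK libraries. Liver NK RARa403 library 1 stood apart. It correlated with its group-mates at 0.633 on average, against at least 0.77 for every other library, and 186 of 2684 genes above 50 CPM in all other libraries had 3 counts or fewer there. It also held 798 counts of Itga1, against 0 to 43 in the other NK libraries. Rara, the gene that encodes the receptor, had 1764 counts in it, against 119 to 399 in the other 17 libraries, and counts per gene do not separate the truncated receptor from the endogenous one. Values of members, and of some list genes in the comparison of RARa403 liver ILC1s with RARa403 liver NK cells, are also given without it in places.

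The members lie on different chromosomes of mm10. Mmp9 (ENSMUSG00000017737) spans chr2:164940780-164955850 on the plus strand, Adam8 (ENSMUSG00000025473) chr7:139978932-139992562 on the minus strand and Adam10 (ENSMUSG00000054693) chr9:70678997-70780229 on the plus strand. Adam17 (ENSMUSG00000052593) lies at chr12:21323509-21373632 on the minus strand and Adam19 (ENSMUSG00000011256) at chr11:46055992-46147343 on the plus strand. Counts are per gene over its exons. Exons of Adam17 overlap Iah1 on the opposite strand, which had 35 to 287 counts per library, and exons of Adam8 overlap the antisense transcript Gm16201, which had 0 to 55. The sources used here do not give the strand setting of the counting, so reads in these overlaps are uncertain. The antisense transcripts Gm16033 and Gm16034 at Adam19 had 0 or 1 count in every library.

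Promoter sequences, 250 bases before to 50 after the gene start, were matched for 4 of the 5 members in RefSeq GRCm38.p6: Adam8, Adam10, Adam17 and Adam19. The promoters of Adam19, whose level differed most between cell types among these 4, and of Adam10, which was among the steadiest, are shown 5′ to 3′ on the gene's own strand. Capitals mark a match to the AP-1 motif TGANTCA.

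Adam19, chr11:46055734-46056033, plus strand: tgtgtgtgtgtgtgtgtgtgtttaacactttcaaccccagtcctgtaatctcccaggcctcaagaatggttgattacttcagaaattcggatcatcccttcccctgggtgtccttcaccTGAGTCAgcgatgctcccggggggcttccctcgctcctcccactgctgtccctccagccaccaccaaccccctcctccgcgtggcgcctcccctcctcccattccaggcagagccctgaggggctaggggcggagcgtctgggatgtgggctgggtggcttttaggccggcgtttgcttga

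Adam10, chr9:70678732-70679031, plus strand: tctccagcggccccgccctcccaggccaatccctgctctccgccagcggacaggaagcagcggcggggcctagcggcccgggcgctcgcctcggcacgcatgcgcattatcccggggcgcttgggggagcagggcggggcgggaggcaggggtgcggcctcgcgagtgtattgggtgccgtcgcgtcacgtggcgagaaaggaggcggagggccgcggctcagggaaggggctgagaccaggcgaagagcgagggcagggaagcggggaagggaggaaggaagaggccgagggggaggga

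The Adam19 window held 11 CpG dinucleotides, more than 58.6% of 32851 promoters, and the Adam10 window 32, more than 90.5%. Adam17, the other steady member, had 30 CpGs in its window, and Adam8 had 6, beside a median of 7 over all promoters. Of 3 motifs searched on both strands, AP-1 (TGANTCA) occurred in 7.81% of all promoters, a T-box core (TCACACC) in 3.98% and a retinoid receptor half-site (AGGTCA) in 16.3%. The Adam19 window held 1 AP-1 match, and the Adam8, Adam10 and Adam17 windows held no match to any of the 3 motifs. A match of letters is not evidence of binding.

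Mmp9 separated the control cell types that led to its choice. Control liver ILC1 libraries had 151.4, 200.0 and 537.8 CPM of Mmp9, against 0, 0 and 0.176 CPM in control liver NK libraries, where a single count was found in all. The lowest ILC1 library had 698 counts of Mmp9, far above the floor of 3. Adam19 was much more even in the ILC1s. It had 42.4, 42.7 and 44.4 CPM in control liver ILC1 libraries and 0 counts in all 3 control liver NK libraries, and with 3 counts in each NK library as the floor the level was at least 97.4-fold higher in ILC1s. Adam8 had 36.0, 38.4 and 44.2 CPM in the same ILC1 libraries, against 1.87, 18.5 and 6.53 CPM in the NK libraries, without overlap and with a wide spread among the NK libraries. Its fitted log2 difference was 2.13. Both ubiquitous sheddases lay close together in the 2 cell types. Adam10 had 183.7, 134.1 and 173.9 CPM in control liver ILC1s and 157.1, 138.5 and 270.3 CPM in control liver NK cells, a fitted log2 difference of -0.20 with overlapping libraries. Adam17 had 111.9, 137.8 and 121.8 CPM in control liver ILC1s, all below the 142.1, 179.1 and 161.8 CPM of control liver NK cells, and the fitted log2 difference was -0.38. Of all 14714 tested genes, 16.9% showed no overlap between these groups, 8.71% with ILC1s higher and 8.2% with ILC1s lower, and nothing is read from the members' counts here.

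**Figure D1:**
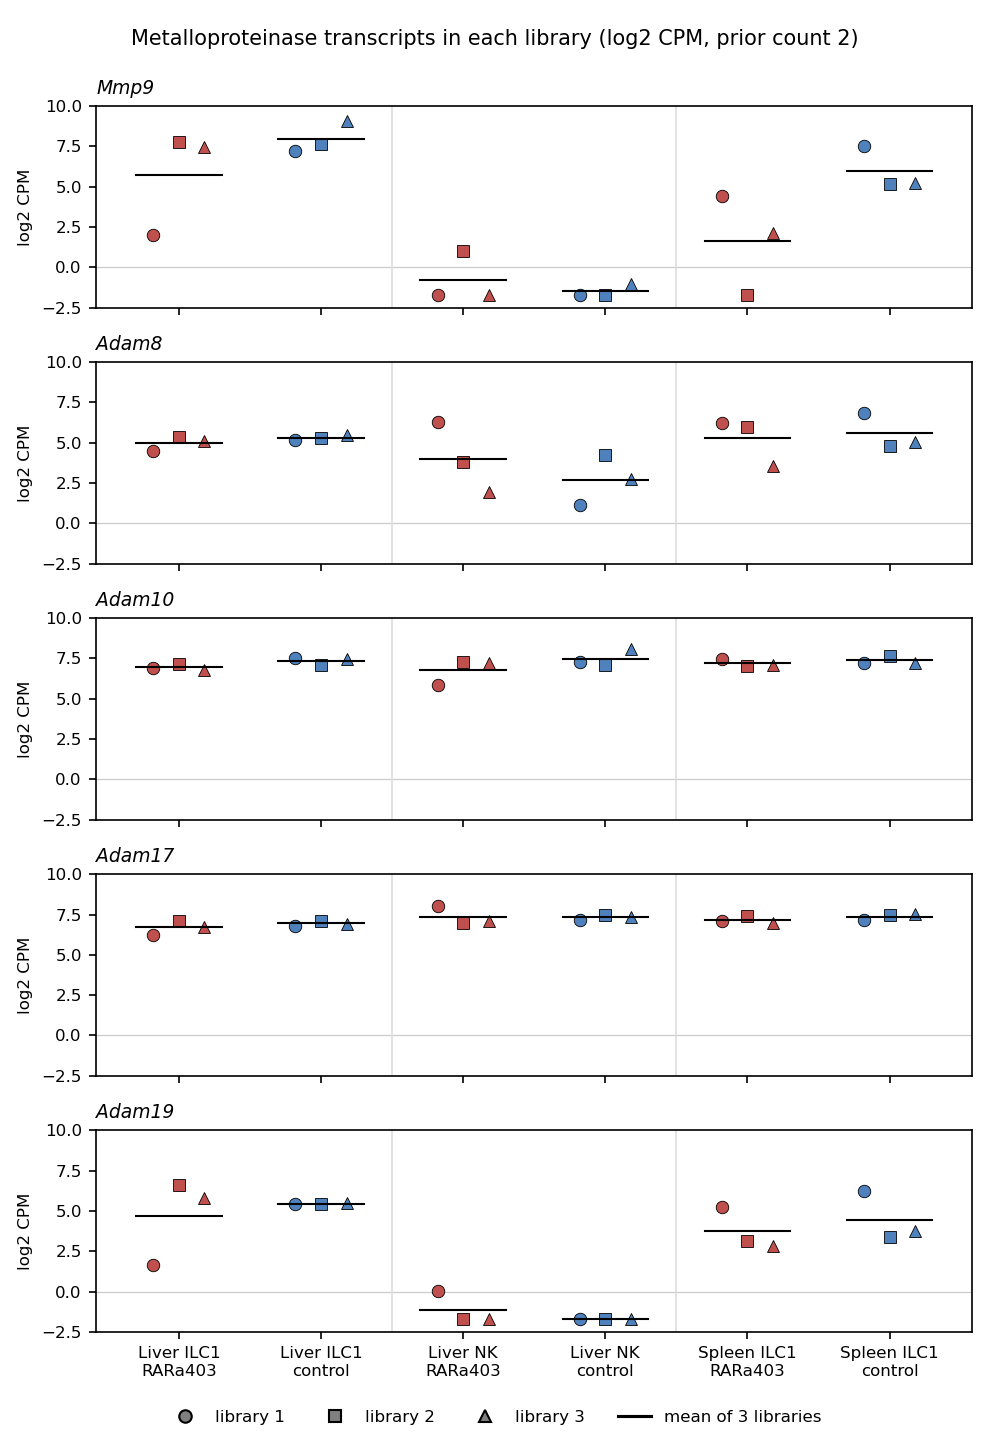
Log2 CPM (prior count 2) of the 5 metalloproteinase genes in each of the 18 libraries, by group; symbols are libraries 1 to 3, red RARa403 and blue control, and bars are means of 3 libraries. Mmp9 and Adam19 lie near the floor in NK libraries and above it in 11 and 12 of the 12 ILC1 libraries, while Adam10 and Adam17 keep within 5.88 to 8.08 log2 CPM throughout.

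The RARa403 libraries, which the rule of choice did not use, give another view of the 2 liver cell types. Earlier results of these data were known when the members were chosen. Mmp9 had 3.74, 216.4 and 179.6 CPM in RARa403 liver ILC1s, against 0, 1.67 and 0 CPM in RARa403 liver NK cells, where library 2 held all 15 counts. The groups did not overlap, although liver ILC1 library 1 lay far below its 2 fellows and close to the NK range. The fitted log2 fold change was 7.60 (SE 1.79, 95% interval 3.80 to 11.40, n = 3 each), with an adjusted p of 0.105 in the quasi-likelihood test of edgeR, adjusted by Benjamini-Hochberg over all tested genes. Adam19 had 2.80, 98.7 and 56.3 CPM in RARa403 liver ILC1s, against 0.733, 0 and 0 CPM in RARa403 liver NK cells, where 3 counts were found in all. Here too the groups did not overlap and ILC1 library 1 was the low one. The log2 fold change of Adam19 was 8.00 (SE 1.66, 95% interval 4.44 to 11.56), with an adjusted p of 0.0594 in the same edgeR test. Against the 3 counts of Adam19 in all RARa403 NK libraries, the ratio of the summed counts was 338.9, with an exact 95% interval of 115.7 to 1646 that covers counting error only. For Mmp9 the same ratio was 172.6, with an interval of 104.5 to 308.8.

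No member passed the threshold of 0.05 in this test, against 0.401% of all genes tested, although 3 of the 5, namely Mmp9, Adam17 and Adam19, were among the 1808 of 14714 genes with an unadjusted p under 0.05. Without overlap and higher in ILC1s were 2 of 5 members, beside 7.58% of all genes, and 12.3% did not overlap in either direction. These 2, Mmp9 and Adam19, were chosen for the same direction in control cells, so nothing is read from this count. With DESeq2 both Mmp9 and Adam19 passed, with adjusted p-values of 0.00169 and 3.53e-06, among 539 genes called against 59 in edgeR. Limma-voom with quality weights called 217 genes and neither of these 2. Libraries numbered 1 carry another opening number in their description codes than libraries 2 and 3, and what that number stands for is not stated. In replicates 2 and 3 only, the log2 fold change was 7.67 for Mmp9 and 11.97 for Adam19. Their adjusted p-values in edgeR were 0.0122 and 0.00104, among 162 genes called. Without liver ILC1 RARa403 library 1 the adjusted p-values were 0.0445 for Mmp9 and 0.0218 for Adam19. Leaving out liver NK RARa403 library 1 gave 0.167 for Mmp9 and 0.0502 for Adam19, at log2 fold changes of 7.14 and 11.45. Without liver NK RARa403 library 2, which holds the 15 counts, the log2 fold change of Mmp9 was 12.73 with an adjusted p of 0.0582.

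The other 3 members did not separate RARa403 liver ILC1s from RARa403 liver NK cells. Adam8 had 22.4, 40.3 and 34.7 CPM in the ILC1s and 79.4, 13.5 and 3.51 CPM in the NK cells, where library 1, the one that stood apart, was above every ILC1 library. Its log2 fold change was 0.02 (SE 0.96, adjusted p = 1 in edgeR) and became 1.93 without that library, with an adjusted p of 0.722. Adam10 had 118.1, 143.4 and 109.1 CPM in RARa403 liver ILC1s and 58.6, 158.5 and 149.5 CPM in RARa403 liver NK cells, a log2 fold change of 0.01 (95% interval -0.74 to 0.76). Without NK library 1 it was -0.30, again not past the threshold. Adam17 had 75.4, 139.7 and 106.6 CPM in the ILC1s and 261.9, 127.1 and 135.5 CPM in the NK cells. Its log2 fold change of -0.70 (SE 0.31, adjusted p = 0.379 in edgeR) was -0.28 without NK library 1. So library 1 of the RARa403 NK cells was the extreme of its group for Adam8 and Adam17 on the high side and for Adam10 on the low side.

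RARa403 liver ILC1s were next set against control liver ILC1s, whose libraries took part in the choice of members. Mmp9 ranged from 3.74 to 216.4 CPM in RARa403 libraries and from 151.4 to 537.8 CPM in control libraries, with overlap. The log2 fold change was -1.15 (SE 1.30, 95% interval -3.91 to 1.61, adjusted p = 1 in edgeR), and -0.58 without RARa403 library 1. Adam19 had 2 RARa403 libraries above and 1 below the narrow range of the controls, 42.4 to 44.4 CPM, with a log2 fold change of 0.29 over all libraries and 0.85 without RARa403 library 1. For Adam8, Adam10 and Adam17 the log2 fold changes were -0.28, -0.41 and -0.21, each with overlapping libraries and an adjusted p of 1. No member was without overlap, beside 9.51% of all genes in either direction. Over all genes 0% were called in this comparison by edgeR, while 432 genes had an unadjusted p under 0.05, none of them a member, and DESeq2 called 26 genes and no member.

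In liver NK cells the RARa403 and control libraries overlapped for all 5 members, beside 8.5% of all genes without overlap. Mmp9 had 15 counts in all in RARa403 NK libraries and 1 count in all in control NK libraries, a ratio of 16.6 with an exact counting interval of 2.55 to 699. All 15 came from a single library, and the fitted interval on the log2 scale, -1.93 to 8.62, included 0. Adam19 had 3 counts in all in RARa403 NK cells and 0 in control NK cells, at or under the floor in each library, and no fold is given. Adam8 had 79.4, 13.5 and 3.51 CPM in RARa403 NK cells and 1.87, 18.5 and 6.53 CPM in control NK cells. Its log2 fold change was 1.83 (SE 0.99, adjusted p = 0.57 in edgeR) with all libraries and -0.09 without RARa403 library 1. Adam10 and Adam17 had log2 fold changes of -0.62 and 0.12, and of -0.31 and -0.31 without that library. The edgeR test called 0% of genes, with 1418 at an unadjusted p under 0.05 and no member among them, and DESeq2 called 143 genes and no member.

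In spleen ILC1s Mmp9 was ordered by genotype without overlap, though the difference did not pass after adjustment. RARa403 spleen ILC1 libraries had 21.3, 0 and 4.02 CPM of Mmp9, against 182.3, 35.3 and 37.9 CPM in control spleen ILC1 libraries. Every RARa403 library was below every control library. The log2 fold change was -3.33 (SE 1.42, 95% interval -6.34 to -0.32, n = 3 each), with an adjusted p of 1 in edgeR's quasi-likelihood test. Among all genes 4.87% showed no overlap with RARa403 lower, 8.98% no overlap in either direction, and 0% were called. The estimate was -2.11 without control library 1, the highest, and -5.34 without RARa403 library 1. The rule that chose the members used none of these 6 libraries, but earlier results of these data were known. Fitted values of markers of other cell types differed by list, beside a median of -0.003 over all genes. Lower in RARa403 spleen ILC1s were 7 of 9 tested monocyte and macrophage markers (median -1.19) and all 6 B cell markers (median -1.79). All 3 tested endothelial and stellate markers were lower too (median -2.84), and 4 of 6 T cell markers (median -0.21). Higher were all 4 tested hepatocyte markers (median 2.86) and 2 of 3 tested dendritic cell markers (median 0.49). No marker of these lists passed. The part of these transcripts in the Mmp9 difference was not tested.

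The remaining members overlapped between genotypes in the spleen. Adam19 had 37.0, 8.36 and 6.87 CPM in RARa403 spleen ILC1s and 74.7, 10.2 and 13.1 CPM in control spleen ILC1s, a log2 fold change of -0.91 (95% interval -3.37 to 1.55). Library 1 was the highest of its group in both genotypes, and without control library 1 the value was 0.59. Adam8 had 75.1, 63.8 and 11.5 CPM in RARa403 spleen ILC1s and 116.9, 27.6 and 33.2 CPM in control spleen ILC1s, with a log2 fold change of -0.24, and 0.73 without control library 1. Adam10 and Adam17 had values of -0.20 and -0.21, with 95% intervals of -0.95 to 0.55 and -0.87 to 0.44. All 5 fitted values lay below 0 and all adjusted p-values were 1. Of the 425 genes with an unadjusted p under 0.05, 1 was a member, Mmp9, and DESeq2 called 18 genes and no member.

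Between organs, Mmp9 again had the largest fitted difference. In control mice it ranged from 35.3 to 182.3 CPM in spleen ILC1s and from 151.4 to 537.8 CPM in liver ILC1s, with a log2 fold change of -1.80 (95% interval -4.61 to 1.01). In RARa403 mice it had 21.3, 0 and 4.02 CPM in spleen ILC1s and 3.74, 216.4 and 179.6 CPM in liver ILC1s. The log2 fold change there was -3.98 (SE 1.46, 95% interval -7.07 to -0.88), with an adjusted p of 1 in edgeR, and liver library 1 lay within the spleen range. Adam19 had log2 fold changes of -0.40 in control and -1.60 in RARa403 ILC1s, spleen over liver. In replicates 2 and 3 only they were -1.89 and -3.33, with adjusted p-values of 0.486 and 0.253. Mmp9 in those replicates had values of -3.32 and -6.51, with the same adjusted p-values. Adam17 was the member without overlap between the control groups, with 142.4, 175.8 and 182.9 CPM in spleen ILC1s and 111.9, 137.8 and 121.8 CPM in liver ILC1s. Its log2 fold change was 0.43 (SE 0.31, adjusted p = 1), beside 4.82% of all genes without overlap and higher in spleen and 8.96% in either direction. In RARa403 ILC1s no member was without overlap, also beside 8.96% of all genes. Adam8 and Adam10 had values of 0.58 and 0.05 in control ILC1s, and 0.63 and 0.26 in RARa403 ILC1s. In both organ comparisons edgeR called 0% of genes, DESeq2 27 and 25 genes, and neither called a member. At an unadjusted p under 0.05 were 468 genes in control ILC1s, none a member, and 419 genes in RARa403 ILC1s, of which Mmp9 was the member. The control comparison shares its liver libraries with the choice of members.

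**Figure D2:**
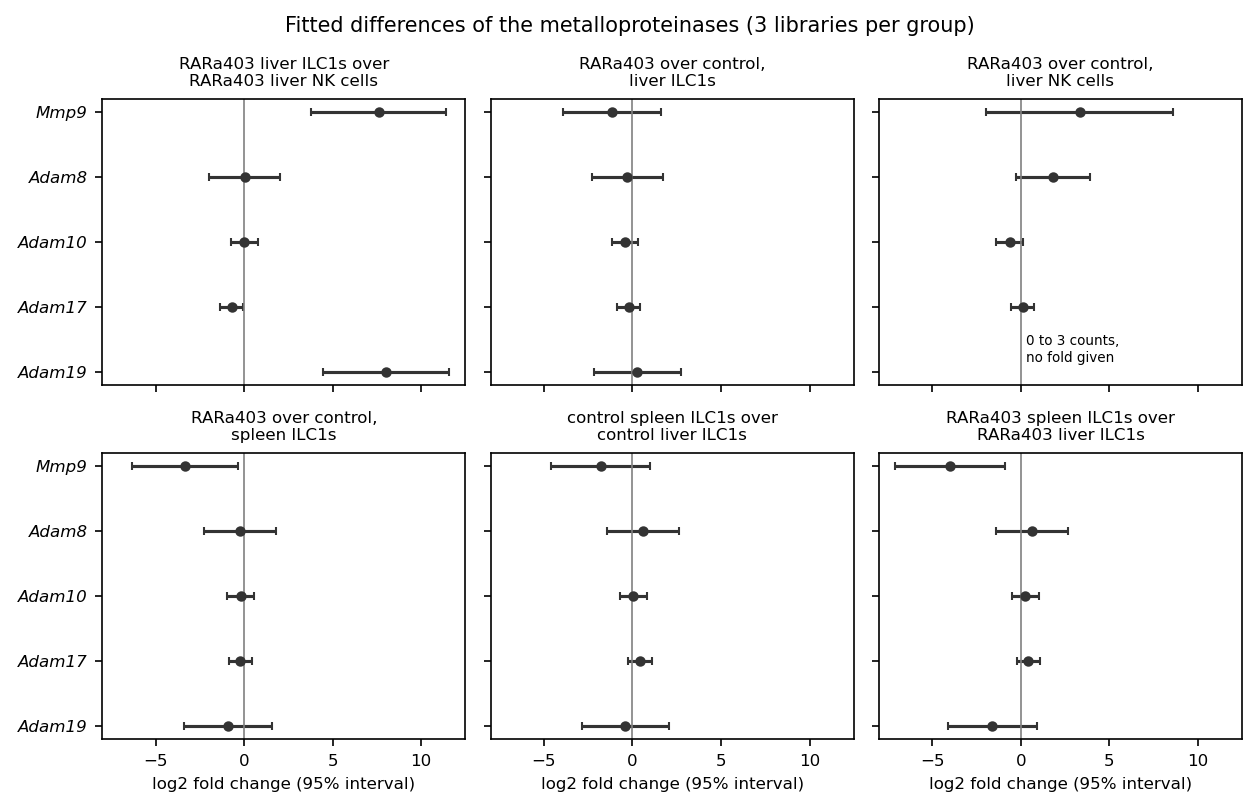
Fitted log2 fold changes (points) with 95% intervals (bars) of the 5 metalloproteinase genes in 6 comparisons of 3 libraries each; the group named first in each panel title is over the second. Intervals of Mmp9 and Adam19 for RARa403 liver ILC1s over RARa403 liver NK cells run from 3.80 to 11.40 and from 4.44 to 11.56, and those of Adam10 stay within -1.38 and 1.01 in all panels.

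Levels of different genes were compared per kilobase of exon. In control liver ILC1s Mmp9 was the most abundant member in all 3 libraries, at 42.8, 56.5 and 152.0 CPM per kb, or 39.1% to 69.0% of the summed level of the 5 members. Adam10 averaged 33.4 ± 5.35 and Adam17 17.3 ± 1.83 CPM per kb there (SD, n = 3), with Adam8 at 8.53 ± 0.913 and Adam19 at 6.07 ± 0.155 CPM per kb. The order Adam10, Adam17, Adam8, Adam19 below Mmp9 held in each of these 3 libraries. In RARa403 liver ILC1s Mmp9 was first in libraries 2 and 3, with 46.2% and 49.1% of the sum, and below Adam10, Adam17 and Adam8 in library 1 with 2.59%. Mmp9 was also first in control spleen ILC1 library 1, with 37.3%, and made up 11.9% and 14.1% in the other 2. In RARa403 spleen ILC1s it held 0% to 7.33%, and in NK cells at most 0.884%. Adam10 led Adam17 per kilobase in 17 of 18 libraries, by 1.09 to 2.43 times, and liver NK RARa403 library 1 was the exception at 0.326.

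Within groups, Mmp9 was also the most variable member. Its pooled SD within groups was 2.06 on the log2 CPM scale, larger than that of 92.2% of the 1187 genes with a similar mean level. Adam19 and Adam8 had 1.43 and 1.35, against 0.43 for Adam10 and 0.34 for Adam17. Adam19 exceeded 46.5% of genes of similar level and Adam8 69.8%. For Mmp9 and Adam19 both the pooled SD and the mean level include NK groups near the floor, which limits these places. The SD of Adam19 was 0 in control and 1.02 in RARa403 NK cells. It was 0.04 in control and 2.68 in RARa403 liver ILC1s, and 1.55 in control and 1.30 in RARa403 spleen ILC1s. Adam10 and Adam17 exceeded 49.9% and 29.1%.

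**Figure D3:**
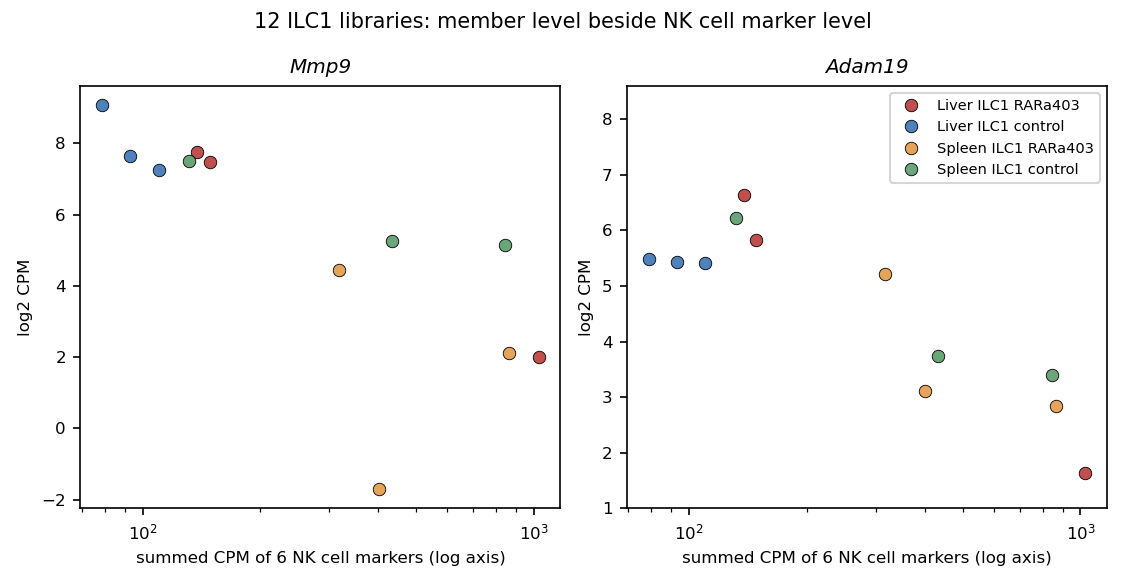
Log2 CPM of Mmp9 (left) and Adam19 (right) in the 12 ILC1 libraries against the summed CPM of 6 NK cell markers on a log axis, one point per library, coloured by group. Liver ILC1 RARa403 library 1, at a marker sum of 1028 CPM, has the lowest Adam19 level of the 12 and the lowest Mmp9 level of the liver libraries.

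Transcripts of NK cells varied among the ILC1 libraries, and in several groups the extremes fell on the libraries with extreme Mmp9 and Adam19. The summed level of 6 NK cell markers (Itga2, Eomes, Itgam, S1pr5, Klra8 and Klra4) was 1028, 138.0 and 148.5 CPM in RARa403 liver ILC1s, against 109.9, 92.85 and 78.91 CPM in control liver ILC1s, without overlap, and 3670 to 4658 CPM in NK libraries. In spleen ILC1s it was 316.9, 401.1 and 865.0 CPM in RARa403 libraries and 131.8, 843.7 and 432.6 CPM in control libraries. Library 1 of RARa403 liver ILC1s thus held the highest sum in liver ILC1s and the lowest Mmp9 and Adam19, and spleen library 1 of each genotype held the lowest sum and the highest Mmp9 and Adam19 of its group. In RARa403 spleen ILC1s, however, library 2 had 0 counts of Mmp9 at an intermediate sum. All 6 markers were above 3 counts in every spleen ILC1 library. The part of these transcripts in the levels of Mmp9 and Adam19 was not tested.

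Markers of neutrophils, a known source of Mmp9, were near 0 in the liver. As a whole list, the 12 neutrophil markers summed to at most 0.935 CPM in liver ILC1s, where Mmp9 reached 537.8 CPM, and to at most 1.78 CPM in liver NK cells. S100a8 and S100a9, the most abundant neutrophil transcripts, had 0 counts in all liver libraries. In spleen ILC1s the sum was 0 to 17.0 CPM in RARa403 and 0.818 to 45.0 CPM in control libraries. The part of the neutrophil transcripts in the levels of Mmp9 was not tested in either organ.

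Of the 12 monocyte and macrophage markers, Ccr2, which lymphocytes also express, held most of the summed level in the liver libraries. Sums of the other 11 overlapped between the liver cell types in both genotypes. Of the 9 tested markers, 7 had higher fitted values in control liver ILC1s than in control liver NK cells, with a median log2 fold change of 6.01 over the 9, and 7 were higher and 1 lower in RARa403 liver ILC1s against RARa403 liver NK cells, with a median of 6.21 and none past the threshold. Without Ccr2, a sum added after seeing the data, the other 11 markers summed to 8.1, 100.8 and 3.53 CPM in RARa403 liver ILC1s, against 0, 3.56 and 4.51 CPM in RARa403 liver NK cells. They summed to 285.3, 14.0 and 0.217 CPM in control liver ILC1s, against 8.71, 9.34 and 10.4 CPM in control liver NK cells. These transcripts were thus concentrated in control library 1 and RARa403 library 2. Control liver ILC1 library 3, with the highest Mmp9 of all libraries at 537.8 CPM, had 1 count of the 11 markers in all. In spleen ILC1s the same sum was 38.0, 44.4 and 42.8 CPM in RARa403 libraries and 10.6, 97.4 and 484.3 CPM in control libraries, where library 1, with the highest Mmp9 in the spleen, had the lowest sum of the 6. The part of these transcripts in the Mmp9 level was not tested in any library.

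B cell markers summed to 457.6 to 623.8 CPM in RARa403 and 410.8 to 783.7 CPM in control liver ILC1s, against 32.3 to 359.6 CPM in RARa403 and 212.8 to 236.6 CPM in control liver NK cells, without overlap. Most of these liver counts were of Ighm. In the spleen they summed to 317.9 to 1012 CPM in RARa403 and 337.2 to 3151 CPM in control spleen ILC1s. T cell markers summed to 143.5 to 544.9 CPM in the ILC1 libraries and 1.71 to 17.8 CPM in NK libraries. The part of B and T cell transcripts in the members' levels was not tested.

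Genes were ranked by how closely their level followed a member, as the mean absolute difference in log2 CPM over the 18 libraries after centring each of 9450 genes. For Mmp9 the nearest were Atp8a2 at 0.89, Cd63 at 1.16, P2rx7 at 1.20 and Cd200r2 at 1.29, against a median of 3.65 over all genes. For Adam19 they were P2rx7 at 0.58, Ccdc136 at 0.68, Cd63 at 0.74 and Sept8 at 0.89, against a median of 2.80. P2rx7, a receptor for extracellular ATP, and Cd63, a tetraspanin of granules and endosomes, stood in both lists, and Adam19 itself was sixth for Mmp9 at 1.38. Mean log2 CPM of P2rx7 was 4.93 in RARa403 and 6.18 in control liver ILC1s, -0.89 in RARa403 and -1.71 in control liver NK cells, and 3.65 in RARa403 and 5.42 in control spleen ILC1s. Cd200r2 had 0.04 in RARa403 and 6.03 in control spleen ILC1s. For Adam8 the nearest gene was Rbpj, which encodes the DNA-binding partner of Notch, at 0.54, followed by Icos, Tmem106a and Sik1, which ranked 24, 32 and 21 without liver NK RARa403 library 1, while Rbpj stayed at 1. Adam10 was nearest to Rab11a at 0.17, with Tprgl, Arpc3 and Neurl3, and Adam17 to Zcrb1 at 0.18, with Ist1, Prpsap1 and Ubqln1. Without that library the 4 genes ranked 8, 12, 18 and 9 for Adam10 and 5, 14, 24 and 67 for Adam17, among 9450 genes. Which genes were the nearest 4 thus depended on it. The points share the libraries and the groups, and nearness is a description. Mmp9 and Adam19 were chosen for the same contrast and both lie at or near the floor in NK libraries. Nothing is therefore read from their nearness to each other or to the same genes.

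Few other matrix metalloproteinase genes were detected at more than trace levels. Of 23 matrix metalloproteinase genes, 5 passed the count filter, Mmp9, Mmp12, Mmp17, Mmp21 and Mmp23, and 6 had 3 counts or fewer in every library. Mmp23 reached 82 counts and Mmp21 57 counts in single spleen libraries, and outside Mmp9 no group mean of the tested genes exceeded 1.11 log2 CPM. The 13 listed ADAM genes left 9 tested. Besides the members, Adam9 had 38 to 103 counts in RARa403 and 44 to 81 counts in control liver ILC1s, and 15 to 237 counts in RARa403 and 10 to 91 counts in control liver NK cells. Adam15 had 26, 15 and 4 counts in RARa403 liver ILC1s and 0 in all RARa403 liver NK libraries, with an adjusted p of 0.363 in edgeR. None of the 5 matrix metalloproteinase and 9 ADAM genes passed in any of the 6 tested comparisons. Replicates 2 and 3 only gave 1 gene of each family, Mmp9 and Adam19, in RARa403 liver ILC1s against RARa403 liver NK cells, among 162 genes called. The median log2 fold change in RARa403 liver ILC1s over RARa403 liver NK cells was 2.35 for the 5 matrix metalloproteinase genes and 0.01 for the 9 ADAM genes, beside 0.08 over all genes. The 2.35 is the value of Mmp21, a gene at trace level. As the lists also include Mmp9 and Adam19, chosen for their level in ILC1s, no shift of a family is read from these medians.

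**Figure D4:**
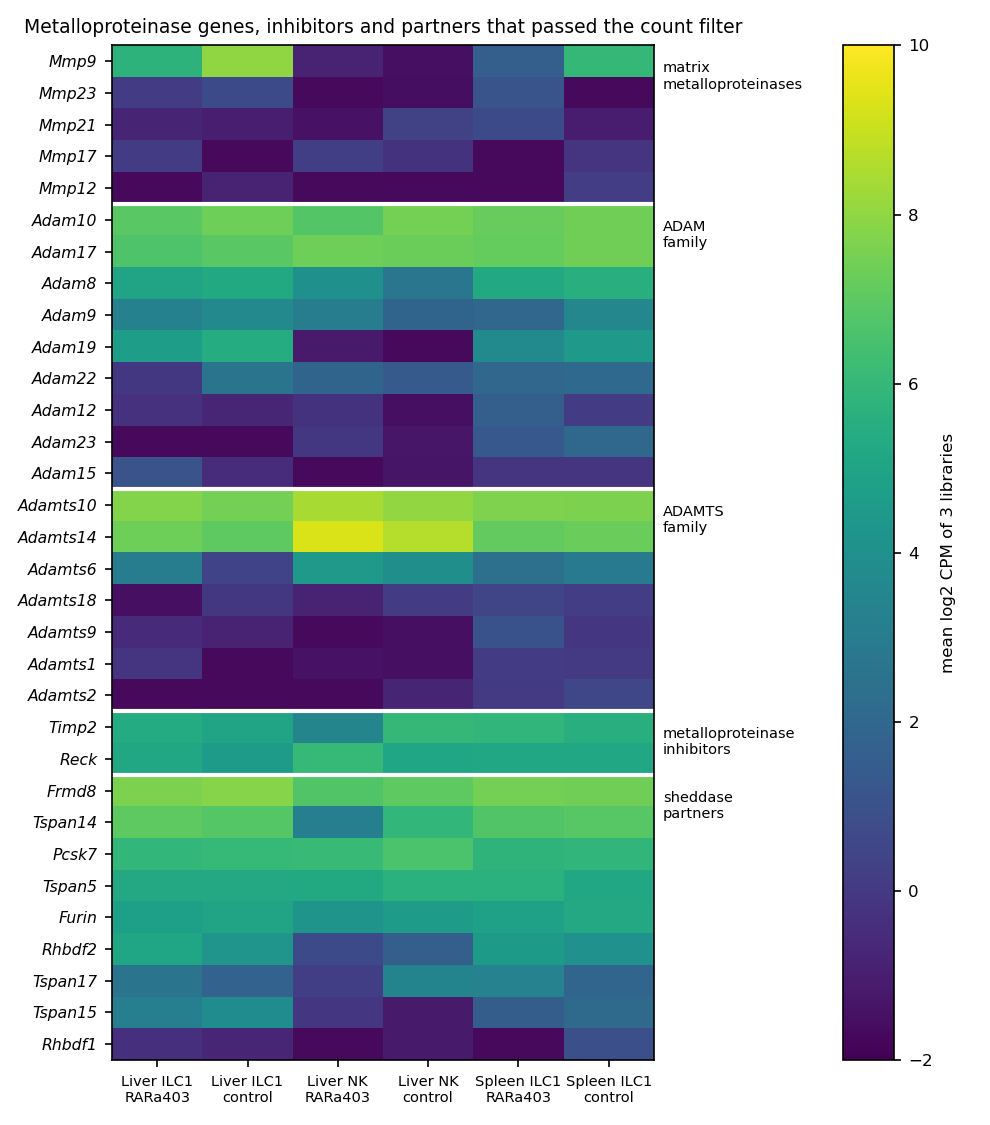
Mean log2 CPM of 3 libraries per group (colour) for the tested genes of the matrix metalloproteinase, ADAM and ADAMTS families, their inhibitors and the partners of ADAM10 and ADAM17; rows are ordered by mean level within each list. Mmp9 and Adam19 are bright in ILC1 columns and dark in NK columns, and Adamts14 is brightest in the NK columns, at 9.30 in RARa403 and 8.68 in control.

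In the ADAMTS family of secreted proteases, Adamts14 was higher in NK cells but abundant in both cell types. Adamts14, a procollagen N-propeptidase, had 1562, 877 and 984 counts in RARa403 liver ILC1s, against 8373, 3245 and 2033 counts in RARa403 liver NK cells, without overlap. Its log2 fold change was -2.42 (SE 0.59) with an adjusted p of 0.117 in edgeR, and -1.01 with an adjusted p of 0.421 without NK library 1. Control liver ILC1s had 668, 436 and 923 counts and control liver NK cells 2514, 3627 and 2472 counts. Adamts10 averaged 7.77 ± 0.11 log2 CPM in RARa403 liver ILC1s and 8.43 ± 0.47 log2 CPM in RARa403 liver NK cells (SD, n = 3), with a log2 fold change of -0.71 and an adjusted p of 0.398, and -0.37 without NK library 1. Per kilobase both were in the range of Adam10, with Adamts14 at 32.9 CPM per kb in RARa403 and 26.7 in control liver ILC1s and Adamts10 at 26.5 and 22.1. Of the 7 tested ADAMTS genes, 0 passed in any of the 6 comparisons.

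Among inhibitors, Timp2, a tissue inhibitor of metalloproteinases, and Reck, a membrane-anchored inhibitor of MMPs, were the 2 of 5 genes tested. Timp2 had 214, 382 and 261 counts in RARa403 and 138, 133 and 198 counts in control liver ILC1s, and 0, 734 and 320 counts in RARa403 and 365, 453 and 483 counts in control liver NK cells. The 0 belonged to library 1, which stood apart. Reck averaged 5.21 ± 1.26 log2 CPM in RARa403 and 4.57 ± 0.15 in control liver ILC1s (SD, n = 3), with a log2 fold change of 0.96 and an adjusted p of 1. Neither passed in any of the 6 comparisons. Timp1 and Timp3 were listed and did not pass the count filter.

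Partners that carry or activate the sheddases were also measured. Frmd8, which stabilises the complex of iRhom proteins with ADAM17, had 1277 to 1461 counts in RARa403 liver ILC1s and 302 to 1115 counts in RARa403 liver NK cells. Its log2 fold change was 0.89 (SE 0.28, adjusted p = 0.22 in edgeR), and 0.69 with an adjusted p of 0.399 without NK library 1. Rhbdf2, which encodes iRhom2, the carrier of ADAM17 in leukocytes, had 250, 281 and 174 counts in RARa403 liver ILC1s, against 0, 22 and 29 counts in RARa403 liver NK cells. The Rhbdf2 groups did not overlap, and the log2 fold change was 3.83 (SE 1.24, adjusted p = 0.225), and 3.29 without NK library 1. In control liver the Rhbdf2 counts were 154, 90 and 58 in ILC1s and 83, 63 and 0 in NK cells, with overlap. Tspan14, one of the tetraspanins that carry ADAM10, had 605, 1308 and 811 counts in RARa403 liver ILC1s and 0, 365 and 361 counts in RARa403 liver NK cells, with a log2 fold change of 2.00 and an adjusted p of 0.389, and 1.43 with an adjusted p of 0.158 without NK library 1. Tspan5, another of them, and Pcsk7, a proprotein convertase, averaged 5.24 ± 0.30 and 5.94 ± 0.81 log2 CPM in RARa403 liver ILC1s and 5.28 ± 1.07 and 6.15 ± 0.68 log2 CPM in RARa403 liver NK cells. Of 13 listed partners 9 were tested and 0 passed in any of the 6 comparisons. Their median in RARa403 liver ILC1s over RARa403 liver NK cells was 2.00, the value of Tspan14 with NK library 1 included.

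Of 19 listed surface proteins known to be shed by ADAM10, ADAM17 or both, 18 were tested and 0 passed in any of the 6 comparisons. Their median log2 fold change in RARa403 liver ILC1s over RARa403 liver NK cells was 0.37. The smallest p-values in that comparison belonged to Notch2 and Notch1, with log2 fold changes of -3.31 and -2.63 and adjusted p-values of 0.22 and 0.246. Liver NK RARa403 library 1 alone held 5439 counts of Notch2 and 4251 of Notch1, against 154 to 376 counts of either in the other 2 libraries of its group. Without it the values turned to 0.59 for Notch2 and 0.68 for Notch1, with adjusted p-values of 0.791 and 0.746. Havcr2 followed, with 0 counts in all RARa403 liver ILC1 libraries and 96, 0 and 4 counts in RARa403 liver NK cells. Of genes that mark the sorted cells, 3 of 6 ILC1 markers and 1 of 6 NK cell markers passed in it, beside 0.401% of all genes tested. Cd200r1, Zfp683 and Cxcr6 were higher in RARa403 liver ILC1s, with log2 fold changes of 12.44, 5.18 and 7.70, and Itgam was lower at -3.35. Genes of the sort itself did not pass, with log2 fold changes of 1.502 for Itga1 (adjusted p = 0.702), -1.92 for Itga2 (adjusted p = 0.243) and 2.62 for Il7r (adjusted p = 0.183) in edgeR. Without NK library 1, Itga1 had 6.15 with an adjusted p of 0.00995, while Itga2 and Il7r had -2.02 and 3.30 and did not pass. Cd200r1, Zfp683, Cxcr6 and Itgam had 12.47, 6.32, 7.20 and -2.52 without it and still passed. Cd3e, the T cell marker that passed, was higher at 9.85 (adjusted p = 0.0124 in edgeR), and at 11.87 without NK library 1 (adjusted p = 0.0142).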

How the data were processed

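Total RNA of 200 sorted cells per library was made into SMART-seq libraries, per the labels' protocols. The authors deposited whole-number gene counts. The submitters' processing notes list fastp 0.23.0, HISAT2 2.1.0, the build mm10 and featureCounts of Subread 1.6.5. The sources used here do not give the annotation release, strand setting or treatment of multiply aligned reads. Symbols and coordinates came from GENCODE for the same build, with 45143 of 46078 genes matched, and genes without a symbol held 0.0544% of the counts. Promoters came from RefSeq GRCm38.p6.

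Genes were filtered with filterByExpr at a minimum count of 10, which left 14714. Counts were scaled by TMM and fitted with edgeR 4.0.16 (R 4.3.3) as a quasi-likelihood model with a mean per group over all 18 libraries. P-values were adjusted by Benjamini-Hochberg within a comparison, with a threshold of 0.05. The common biological coefficient of variation was 0.862. Levels are CPM of the scaled library size, or their log2 after adding a prior count of 2. A standard error is the fold change over the root of its F value. The steps were tested on simulated data.

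The members and the gene lists were chosen with earlier results of these data known. Genes named are the members, list genes past the threshold, in RARa403 liver ILC1s against RARa403 liver NK cells up to 3 list genes of smallest p, the list genes of highest level and the 4 genes nearest each member. Not every gene that this rule allows is named, and 1 gene of the marker and substrate lists is not reported here. Itga1, Itga2, Il7r, Rara, Ccr2, Ighm, Timp1 and Timp3 lie outside it and were named after their values were seen. Alternatives were DESeq2 1.42.0, limma 3.58.1 voom with quality weights, RLE factors, no filter, only the groups compared, a replicate block, the description code number as a term, replicates 2 and 3 only, another prior count, and leaving out each library. Counts of list genes without liver NK RARa403 library 1 or in replicates 2 and 3 only, and fold changes of list genes without that library, were added after seeing the data.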

Additional observations from a re-analysis of the deposited data

How the results depend on the processing

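No member passed the threshold in any of the 6 tested comparisons with edgeR's quasi-likelihood test, and RLE factors, limma-voom, the groups compared alone and the replicate block gave 0 as well. In RARa403 liver ILC1s against RARa403 liver NK cells the number passing was 2 with DESeq2, among 539 genes called. It was 2 with replicates 2 and 3 only, among 162, and 2 without a filter on low counts, among 794. It was 1 with the description code number as a term (Adam19, adjusted p = 0.0432, among 52 genes called), and 0 to 2 when each library was left out. The lower and upper adjusted p over those omissions were 0.0445 and 0.281 for Mmp9 and 0.0218 and 0.187 for Adam19. Without a filter, 1 member, Mmp9, passed in RARa403 against control liver NK cells, in RARa403 against control spleen ILC1s and in RARa403 spleen against RARa403 liver ILC1s (adjusted p-values 0.0225, 5.26e-06 and 3.13e-09, among 523, 32 and 41 genes called). Causes of these differences were not tested.

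Directions of Mmp9, Adam8, Adam10, Adam17 and Adam19 turned in places, and each turned value was short of the threshold. In RARa403 liver ILC1s over RARa403 liver NK cells, Adam8 was -0.11 with RLE factors, -0.04 without a filter, -0.01 with only the groups compared, -0.12 with DESeq2 and -0.51 to 1.93 over omissions, and Adam10 was -0.29 with replicates 2 and 3 only, -0.32 with voom and -0.30 to 0.26 over omissions. For RARa403 over control, Adam19 in liver ILC1s was -0.24 with voom and -0.54 to 0.85 over omissions. In liver NK cells Adam8 was -0.56 and Adam17 -0.40 with replicates 2 and 3 only, Adam17 was -0.29 with voom, and omissions gave -0.09 to 2.92 for Adam8, -0.31 to 0.31 for Adam17 and -1.80 to 5.17 for Mmp9. In spleen ILC1s Adam8 was 0.30 with replicates 2 and 3 only, and omissions gave -0.64 to 0.73 for Adam8 and -2.08 to 0.59 for Adam19. For spleen over liver, control Adam8 was -0.43 with replicates 2 and 3 only and -0.03 with voom, RARa403 Adam8 was -0.16 with voom, and control omissions gave -0.38 to 0.92 for Adam8, -0.12 to 0.13 for Adam10 and -1.89 to 0.02 for Adam19.

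In control liver ILC1s less control liver NK cells, the mean log2 CPM difference with a prior count of 0.5 was 11.12 for Mmp9 and 9.14 for Adam19, and omissions gave 8.95 to 9.84 for Mmp9, 1.81 to 3.36 for Adam8, -0.35 to 0.13 for Adam10 and 7.11 to 7.19 for Adam19. Genes called in RARa403 liver ILC1s against RARa403 liver NK cells numbered 59 with edgeR, 34 with the replicate block, 162 with replicates 2 and 3 only, 217 with voom, 539 with DESeq2, 794 without a filter and 0 with only the groups compared. With the replicate block as a term, Mmp9 was 7.65 (adjusted p = 0.205) and Adam19 8.71 (adjusted p = 0.079) there. Correlations of the deviations of equally numbered libraries ran from -0.03 to 0.25, and in no comparison did all 3 pairs exceed 0.1, so the numbers were not taken as pairs. With only the groups compared, Mmp9 and Adam19 gave no value in liver NK cells because they did not pass the filter. Depth limits Mmp9 and Adam19 in NK cells to the floor, which is 0.334 to 0.86 CPM over the 18 libraries.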
